A study of Mus musculus with 8 samples.

Results

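*Sp100*, *Sp110*, *Sp140*, *Lgals3bp*, *Ifi27* and *Gm4951* are 6 of the 31053 genes counted in the deposited tables. They were chosen on these data, as genes strongly lower in microglia that lack the type I interferon receptor subunit IFNAR1, with *Sp110* and *Sp140* added as relatives of *Sp100*. The genotype difference in microglia is therefore given for them as a description, with no test. In the data, 4 of the 6 genes were lower in knockout microglia, while *Sp110* and *Sp140* were not, so the 6 genes are named here by their symbols and not as a set lost together.

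Type I interferons bind a receptor made of IFNAR1 and IFNAR2, and the kinases JAK1 and TYK2 at its cytoplasmic side start a signal that ends, with IRF9, at interferon-stimulated response elements in the promoters of target genes. Low amounts of interferon are made without infection, and this tonic signal keeps a part of these genes transcribed at rest, also in the microglia of a brain without infection. SP100, SP110 and SP140 belong to a family of nuclear proteins that carry an HSR domain for self-association and a DNA-binding SAND domain, and SP100 is a permanent component of PML nuclear bodies. LGALS3BP is a secreted glycoprotein that binds galectins, IFI27 is a small hydrophobic protein of mitochondria and the nuclear envelope, and *Gm4951* encodes a predicted GTPase of the interferon-inducible type.

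Nuclei were taken from the cortex of 8 naive C57BL/6J mice at 6 weeks of age, 4 of them Wt (*Ifnar1*+/+) and 4 *Ifnar1*-/-. Each genotype held 2 females (F1, F2) and 2 males (M1, M2). The knockout was germline and not limited to a cell type, and no group received interferon or another agent. Single-nucleus RNA sequencing with 10x 3' chemistry counted each captured transcript once by its unique molecular identifier (UMI), and the comparison of genotypes asks which transcripts of each cortical cell class change when the receptor is lost. After filters 52089 nuclei remained of 56780 barcodes.

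The depth was alike in the 2 genotypes. The total was 55053026 UMIs in Wt F1, 50295802 in Wt F2, 58423423 in Wt M1 and 46076959 in Wt M2. It was 44063346 UMIs in *Ifnar1*-/- F1, 46079274 in *Ifnar1*-/- F2, 58057084 in *Ifnar1*-/- M1 and 48344790 in *Ifnar1*-/- M2. Clusters named by marker genes gave 4389 microglia, 174 border macrophages, 22570 glutamatergic neurons, 6434 GABAergic neurons, 1187 striatal projection neurons, 7300 oligodendrocytes, 453 oligodendrocyte precursors and 159 astrocytes, and 9423 nuclei lay in clusters without a name. All 11 microglia markers had UMIs in the microglia, at a summed 31390 CPM (UMIs scaled to the same total in each library and class) in Wt and 29220 CPM in *Ifnar1*-/-. The microglia held 662, 515, 478 and 768 nuclei in Wt F1, F2, M1 and M2, and 156, 438, 607 and 765 in the same order in *Ifnar1*-/-.

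1 library stood apart. *Ifnar1*-/- F1 gave the fewest microglia, with 175051 UMIs in that class where the other libraries had 552116 to 1269943. It also gave 63 of the 174 nuclei clustered as border macrophages, with a median of 5661 UMIs per nucleus against medians of 1294 to 1846 in the other libraries, and 142 of the 453 oligodendrocyte precursors. In those 63 nuclei the 7 border macrophage markers summed to 48.1 CPM (18 UMIs), where the other libraries had 1574 to 10490 CPM. Most of the 63 nuclei thus did not carry the markers of the class they were counted in. Pooled ratios of *Gm4951*, *Sp100*, *Sp110* and *Sp140* in border macrophages are therefore given with and without *Ifnar1*-/- F1, while other values of that class include this library. Over all kept nuclei 327 barcode sequences occurred in 2 or more libraries, and 1 of them did so within microglia.

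The targeted gene itself was still counted. *Ifnar1* stood at 19.9, 16.2, 17.5 and 18.8 CPM in all nuclei of Wt F1, F2, M1 and M2. In *Ifnar1*-/- it stood at 13.9, 14.5, 16.9 and 15.9 CPM. The ranges of the genotypes overlapped over all nuclei, by the level of *Ifnar1*-/- M1 above that of Wt F2. In microglia the Wt levels were 62.1, 42.4, 54.3 and 56.2 CPM and the *Ifnar1*-/- levels 22.9, 28.6, 30.8 and 36.2 CPM, so there all knockout libraries lay below all Wt libraries. From a sum per gene the origin of its 3' tags along the transcript cannot be read, and UMIs from outside the deleted part check nothing about the allele.

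In Wt microglia *Sp100* was counted in every mouse, with 49 UMIs in F1, 28 in F2, 17 in M1 and 37 in M2. In *Ifnar1*-/- microglia it had 2 UMIs in F1, 0 in F2, 0 in M1 and 4 in M2. Every knockout library lay below every Wt library, and in F2 and M1 no *Sp100* molecule was counted at all, while M2, the deepest of the 4, held 4. Scaled by depth, the level was 35.7 ± 4.86 CPM (SD, n = 4) in Wt and 3.64 ± 5.40 CPM in *Ifnar1*-/-, a fitted log2 fold change of -4.06 (standard error 0.61). Over the pooled UMIs this was a ratio of 18.5, with a 95% interval of 8.27 to 51.3 for counting error only. The highest knockout level, 11.4 CPM in F1, rested on 2 UMIs in the shallowest library, and without that library the ratio was 26.2.

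*Lgals3bp* had 78, 48, 28 and 68 UMIs in Wt F1, F2, M1 and M2 microglia. In *Ifnar1*-/- it had 2, 8, 9 and 10 UMIs in the same order. The groups were far apart, and the knockout mice were much alike, between 7.87 and 11.4 CPM where Wt lay between 50.7 and 65.7 CPM. The means were 60.4 ± 7.02 CPM (SD, n = 4) and 10.1 ± 1.60 CPM, a log2 fold change of -2.62 (standard error 0.25), and the pooled ratio was 6.48 (4.39 to 9.91). *Lgals3bp* UMIs were thus counted in the microglia of every knockout mouse, while *Sp100* had none in F2 and M1. Whether RNA of other cells gave a part of these few UMIs was not tested.

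*Ifi27* behaved much like *Lgals3bp*. It had 75, 44, 30 and 76 UMIs in Wt F1, F2, M1 and M2 microglia. In *Ifnar1*-/- it had 4, 3, 10 and 17 UMIs. No knockout mouse reached the Wt range, but they differed more among themselves than for *Lgals3bp*, from 3.73 CPM in F2 to 22.9 CPM in F1, where Wt spanned 54.3 to 66.7 CPM. The means were 61.0 ± 5.20 CPM (SD, n = 4) and 13.1 ± 7.82 CPM, which the fit put at a log2 fold change of -2.42 (standard error 0.34), and the pooled ratio was 5.61 (3.90 to 8.30).

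*Gm4951* was the least counted of the 4 lower genes and the only member that did not pass the filter on low counts in microglia, so 5 of 6 did. It had 21, 16, 6 and 24 UMIs in Wt F1, F2, M1 and M2. In *Ifnar1*-/- microglia it had 0, 2, 0 and 2 UMIs. The lowest Wt level, 10.9 CPM in M1, was still above the highest knockout level, 2.49 CPM in F2. The means were 17.9 ± 5.01 CPM (SD, n = 4) and 1.02 ± 1.23 CPM, with a pooled ratio of 14.2 (5.29 to 53.6). The fit without that filter gave a log2 fold change of -3.68 (standard error 0.64).

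*Sp110* and *Sp140* went a different way from their relative. *Sp110* had 41, 26, 10 and 33 UMIs in Wt F1, F2, M1 and M2 microglia and 7, 27, 27 and 31 in *Ifnar1*-/-. *Sp140* had 54, 28, 19 and 32 UMIs in Wt and 8, 35, 21 and 51 in *Ifnar1*-/-. For both genes the genotypes overlapped throughout, and the highest level of each was that of *Ifnar1*-/- F1, on 7 and 8 UMIs. *Sp110* averaged 29.3 ± 7.97 CPM (SD, n = 4) in Wt mice and 32.8 ± 6.40 CPM in *Ifnar1*-/- (log2 fold change 0.09, standard error 0.27), and its pooled Wt to knockout ratio was 1.01 (0.761 to 1.35). *Sp140* stood at 36.5 ± 7.22 CPM and 38.8 ± 8.94 CPM (log2 fold change 0.07, standard error 0.25), with a ratio of 0.980 (0.757 to 1.27).

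**Figure D1:**
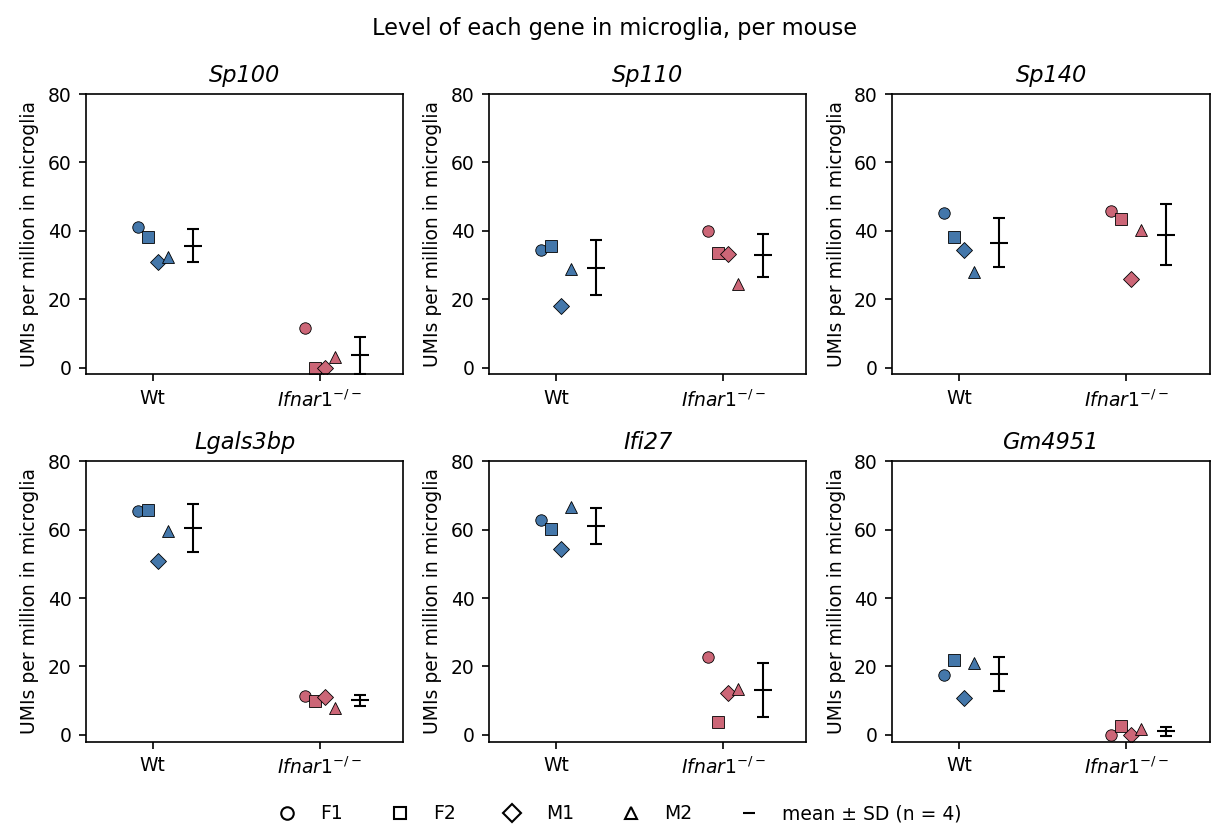
Level in CPM of the 6 genes in microglia of each mouse (n = 4 per genotype), with the mean and SD beside the points. The 4 *Ifnar1*-/- mice lie below all Wt mice for *Sp100*, *Lgals3bp*, *Ifi27* and *Gm4951*, and overlap with them for *Sp110* and *Sp140*.

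The differences had the same sign in both sexes. Within the 2 females and 2 males of each genotype the log2 ratio of mean CPM was -2.80 in females and -4.33 in males for *Sp100*, with every knockout mouse below every Wt mouse in both sexes. It was -2.62 and -2.54 for *Lgals3bp*, -2.21 and -2.24 for *Ifi27*, and -3.99 and -4.34 for *Gm4951*. For *Sp110* it was 0.07 and 0.29, and for *Sp140* 0.09 and 0.08, with overlapping mice in both sexes. With 2 mice against 2 these values are descriptions.

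In the edgeR quasi-likelihood fit over all genes, 9 of 9526 genes in microglia (0.0945%) passed a Benjamini-Hochberg adjusted p of 0.05, 3 higher and 6 lower (0.063%) in *Ifnar1*-/-. Since the members were chosen on this contrast, their own calls in it are left out. With the replicate numbers as a block, 17 genes passed.

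*Sp110*, *Sp140* and *Sp100* lie next to each other on chromosome 1 (GRCm38, GENCODE M21). *Sp110* (ENSMUSG00000070034) runs from 85576899 to 85598817 on the minus strand, *Sp140* (ENSMUSG00000070031) from 85600378 to 85645037 and *Sp100* (ENSMUSG00000026222) from 85649988 to 85709998, both on the plus strand. Within 250 kb of the 3 genes lie 13 other annotated genes, of which 10 had UMIs in microglia and 4 could be tested. By edgeR 0 of these 4 passed, with a median log2 fold change of -0.05. On the far side of *Sp100*, *A630001G21Rik* had 687 UMIs in microglia of Wt and 542 in those of *Ifnar1*-/-, a log2 fold change of -0.03, and *Gm17017*, antisense across the start of *Sp100*, had 7 and 3. These 2 neighbours were named after their values were seen. *Gm10552*, annotated as antisense within *Sp140*, had 103 and 74 UMIs (log2 fold change -0.25). It lies within the span of *Sp140* on the opposite strand, so strand and not position separates the UMIs of these genes. *G530012D18Rik*, which overlaps the end of *Sp110*, had 0 and 1.

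**Figure D2:**
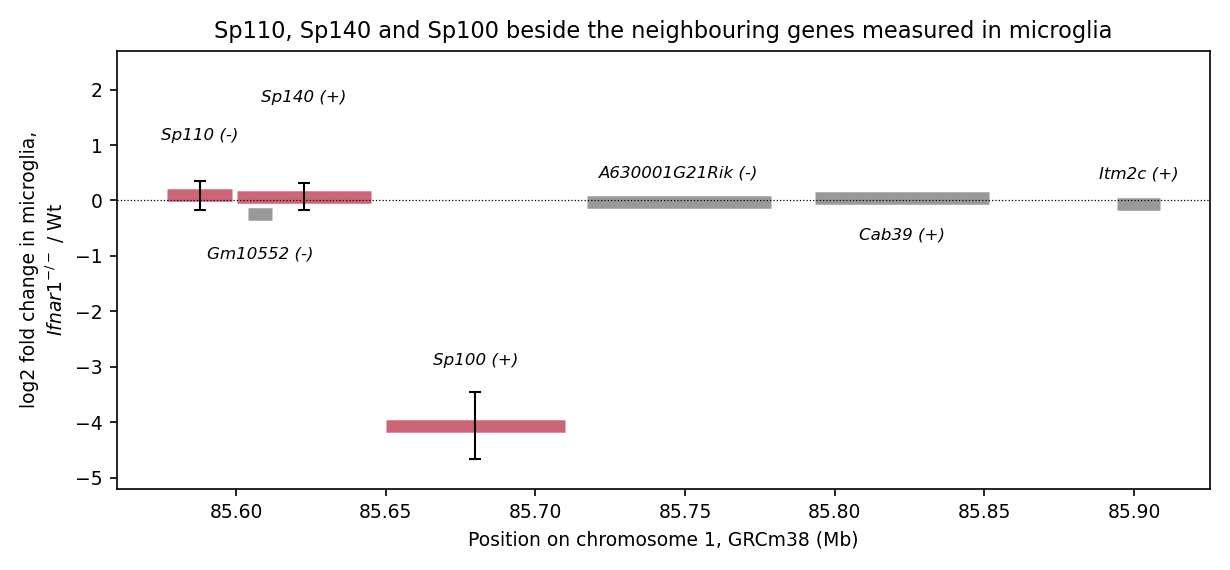
Fitted log2 fold change in microglia (*Ifnar1*-/- over Wt, n = 4 per genotype) against position on chromosome 1 for *Sp110*, *Sp140*, *Sp100* and the 4 tested neighbours, each drawn at the extent of its annotated gene. Bars on the 3 family members are standard errors, and *Sp100* at -4.06 stands apart from the other genes, which lie near 0.

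Promoter sequences of 4 members were in the RefSeq table (GRCm38.p6), with 2 entries for *Sp100*, 2 for *Sp110*, 1 for *Sp140* and 1 for *Lgals3bp*. None was given for *Ifi27* and *Gm4951*. The 250 bases before each start were searched on both strands for 2 copies of GAAA with 2 free bases between them, the core of an interferon-stimulated response element. A wider form allows 1 free base after the first G, was set with these promoters in view and can overlap with the core. The core was in none of the 6 windows and in 2.97% of the 32817 windows of the table. The wider form was in both *Sp100* windows and in the *Lgals3bp* window, in no window of *Sp110* or *Sp140*, and in 2.45% of all windows. The 2 *Sp100* windows hold the same site. Since the wider form was set with these promoters in view, nothing is read from which genes have it, and the sites are printed as a description, with the match in capitals:
Sp100: gagaattacTTTCGTTTTTCttttcccca
Lgals3bp: gtgttttctGAAAATCGAAActaggt
The *Sp100* sequence is chr1:85649932-85649960 on the plus strand, where no exon is annotated, and its capitals read on the opposite strand 47 to 37 bases before the first listed start. The *Lgals3bp* sequence is chr11:118401960-118401985 on the minus strand, 17 to 7 bases before the start, and overlaps an annotated exon. A match is a description of letters, and binding was not measured.

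Per nucleus the genes were sparse. *Sp100* was detected in 4.91% of 2423 Wt microglia (95% Clopper-Pearson interval 4.09 to 5.85) and in 0.305% of 1966 *Ifnar1*-/- microglia (0.112 to 0.663), at median depths of 1431 and 1515 UMIs. In oligodendrocytes, which are deeper at 2067 and 2091 UMIs, the *Sp100* shares were 0.0544% and 0%, where a count of 0 in 3624 nuclei allows up to 0.102%. With each nucleus thinned to 1000 UMIs, *Sp100* was in 3.22% of Wt and 0.153% of *Ifnar1*-/- microglia and in none of the oligodendrocytes. The share in knockout microglia lay below that of the much deeper glutamatergic neurons (0.390% at a median of 8372 UMIs) and, once thinned, above it (0.0434%).

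*Lgals3bp* was detected in 8.09% of Wt and 1.37% of *Ifnar1*-/- microglia (5.94% and 0.966% thinned), beside 0.109% and 0.193% of oligodendrocytes (0.0816% and 0.0828% thinned). The knockout share of *Lgals3bp* therefore stayed above that in oligodendrocytes. *Gm4951* was in 2.39% and 0.153% of microglia (1.82% and 0.153% thinned), beside 0.0544% and 0.0276% of oligodendrocytes. *Sp110* was in 4.50% and 4.32% of microglia (2.39% and 2.75% thinned), beside 0.0816% and 0% of oligodendrocytes. *Sp140* was in 5.20% and 5.70% (3.55% and 3.87% thinned), beside 0.136% and 0.276%. When nuclei were thinned the order of the genotypes turned for *Sp110* and stayed for *Sp140*.

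*Ifi27* was in 8.71% and 1.68% of microglia (5.61% and 1.22% thinned). No class lacked it. Striatal projection neurons had thinned shares of 0.331% in Wt and 0.344% in *Ifnar1*-/-, at medians of 5365 and 5479 UMIs, and the 98 *Ifnar1*-/- astrocytes had none once thinned. Counted together, 1733 of 2423 Wt microglia had none of the 6 transcripts, 572 had 1, 108 had 2, 9 had 3 and 1 had 4. Among *Ifnar1*-/- microglia 1717 of 1966 had none, 233 had 1, 15 had 2 and 1 had 3.

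Across the 8 named classes of Wt, *Sp100* was highest in the brain macrophages. It stood at 123.9 ± 105.8 CPM (SD, n = 4) in border macrophages and 35.7 CPM in microglia, with overlapping ranges, and both lay above 0.597 ± 0.0351 CPM in glutamatergic and 0.587 ± 0.293 CPM in GABAergic neurons. Oligodendrocytes followed at 0.207 ± 0.239 CPM and striatal projection neurons at 0.150 ± 0.301 CPM, and these lower 4 classes overlapped each with the next. In *Ifnar1*-/- microglia had the highest mean at 3.64 CPM but overlapped with GABAergic neurons (0.580 ± 0.210 CPM), glutamatergic neurons (0.425 ± 0.0780 CPM) and striatal projection neurons (0.420 ± 0.840 CPM). No *Sp100* UMI was counted in the oligodendrocyte precursors and astrocytes of either genotype, nor in the border macrophages and oligodendrocytes of *Ifnar1*-/-. In Wt a count of 0 allows up to 1.94% of 188 precursor nuclei and 5.87% of 61 astrocytes to hold a UMI.

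*Sp110* was counted mostly in macrophages. In Wt it stood at 119.2 ± 144.4 CPM in border macrophages and 29.3 CPM in microglia, and the next class, oligodendrocytes, had 0.352 ± 0.417 CPM from 3 UMIs. GABAergic neurons had 0.123 ± 0.0823 CPM and glutamatergic neurons 0.0576 ± 0.0540 CPM, and no UMI was counted in the other 3 classes of Wt. In *Ifnar1*-/- microglia led at 32.8 CPM, apart from border macrophages at 4.22 ± 6.77 CPM. The remaining classes of *Ifnar1*-/- had at most 0.271 ± 0.543 CPM, in striatal projection neurons from 1 UMI, with 0.0850 ± 0.102 CPM in GABAergic and 0.0484 ± 0.0539 CPM in glutamatergic neurons and 0 elsewhere.

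*Sp140* had the same leading classes with a longer tail. In Wt it stood at 127.5 ± 183.1 CPM in border macrophages and 36.5 CPM in microglia, with a group of overlapping classes at lower means. These were astrocytes (3.93 ± 7.86 CPM, 1 UMI), oligodendrocyte precursors (1.64 ± 3.28 CPM, 1 UMI), GABAergic neurons (1.43 ± 0.961 CPM), glutamatergic neurons (0.759 ± 0.458 CPM), striatal projection neurons (0.582 ± 1.16 CPM) and oligodendrocytes (0.557 ± 0.654 CPM). In *Ifnar1*-/- microglia at 38.8 CPM lay apart from border macrophages at 11.9 ± 10.6 CPM. Below them GABAergic neurons (1.16 ± 0.333 CPM), striatal projection neurons (1.14 ± 1.12 CPM), glutamatergic neurons (1.04 ± 0.504 CPM) and oligodendrocytes (0.910 ± 1.25 CPM) overlapped each with the next, and the precursors and astrocytes had 0 UMIs. In glutamatergic neurons the *Sp140* level was uneven among the Wt mice, from 0.335 CPM in Wt M2 to 1.37 CPM in Wt F1.

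*Lgals3bp* had its highest mean in microglia in both genotypes. In Wt its 60.4 CPM lay apart from astrocytes (19.5 ± 23.3 CPM, 4 UMIs) and overlapped with border macrophages (15.7 ± 24.6 CPM, 4 UMIs), of which Wt M2 stood at 51.8 CPM. Striatal projection neurons (2.61 ± 1.86 CPM), oligodendrocyte precursors (1.64 ± 3.28 CPM), GABAergic neurons (1.16 ± 0.536 CPM) and glutamatergic neurons (1.11 ± 0.227 CPM) followed with overlap, and oligodendrocytes had the lowest mean at 0.459 ± 0.352 CPM, apart from glutamatergic neurons but not from the other 3. In *Ifnar1*-/- microglia at 10.1 CPM lay apart from striatal projection neurons at 4.23 ± 1.87 CPM but overlapped with border macrophages (3.55 ± 7.10 CPM) and astrocytes (3.20 ± 6.39 CPM), each on 1 UMI. These, oligodendrocytes (0.846 ± 0.690 CPM), glutamatergic neurons (0.776 ± 0.234 CPM) and GABAergic neurons (0.571 ± 0.306 CPM) overlapped each with the next, and the precursors had 0 UMIs.

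*Ifi27* was found in the oligodendrocyte lineage as well as in microglia. In Wt the order was microglia (61.0 ± 5.20 CPM), oligodendrocyte precursors (44.6 ± 12.7 CPM), oligodendrocytes (34.9 ± 7.45 CPM), border macrophages (31.4 ± 35.5 CPM), astrocytes (25.1 ± 29.1 CPM), GABAergic neurons (8.23 ± 1.61 CPM), glutamatergic neurons (7.31 ± 2.60 CPM) and striatal projection neurons (3.91 ± 2.09 CPM). Each neighbour in that order overlapped with the next, although microglia, at 54.3 CPM or more, lay above every Wt oligodendrocyte value. In *Ifnar1*-/- the order began with oligodendrocytes (22.3 ± 4.88 CPM), oligodendrocyte precursors (13.5 ± 5.38 CPM) and microglia (13.1 ± 7.82 CPM), whose ranges overlapped. Then came astrocytes (8.53 ± 12.1 CPM), GABAergic neurons (7.92 ± 2.62 CPM), border macrophages (7.64 ± 12.0 CPM) and glutamatergic neurons (6.88 ± 1.92 CPM), with striatal projection neurons at the lowest mean, 3.15 ± 2.42 CPM, apart from glutamatergic neurons but not from microglia.

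*Gm4951* had its highest level in Wt border macrophages, at 355.7 ± 352.5 CPM, apart from Wt microglia at 17.9 CPM. GABAergic neurons (0.279 ± 0.0994 CPM), glutamatergic neurons (0.237 ± 0.133 CPM) and oligodendrocytes (0.224 ± 0.261 CPM) came next with overlapping ranges, and the other 3 classes had 0 UMIs. In *Ifnar1*-/- border macrophages again led at 41.7 ± 36.9 CPM, overlapping with microglia at 1.02 CPM. Oligodendrocytes (0.143 ± 0.287 CPM), GABAergic neurons (0.0973 ± 0.115 CPM) and glutamatergic neurons (0.0780 ± 0.0767 CPM) followed with overlap, and the same 3 classes had 0 UMIs.

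How much of the low counts could be free RNA of microglia was measured with the 11 microglia markers, of which *C1qa* was the most abundant. Their summed level in Wt glutamatergic neurons was 0.349% of that in microglia, in Wt GABAergic neurons 0.496% and in Wt oligodendrocytes 0.532%. *Sp110* in Wt glutamatergic neurons, at 0.179% of its microglial level, lay below the markers, on 6 UMIs. *Sp100* and *Lgals3bp* in Wt glutamatergic neurons stood at 1.65% and 1.81% of their microglial levels, *Gm4951* at 1.32% and *Sp140* at 2.12%, each above the markers. *Ifi27* in Wt oligodendrocytes reached 57.3% of its microglial level. In *Ifnar1*-/-, where the marker sum of oligodendrocytes was 0.555% of that in microglia, *Ifi27* in oligodendrocytes stood at 190.3% of the microglial level.

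Outside microglia the genotype contrast did not enter the choice of the members, and it was tested with edgeR in 5 sets of nuclei. In all nuclei outside microglia 9 of 19734 genes passed (0.0456%, and 0.0203% as lower in *Ifnar1*-/-), and 0 of 6 members did by edgeR or DESeq2, with 2 members at an unadjusted p under 0.05 beside 289 of all genes. In glutamatergic neurons 10 of 17995 genes passed (0.0556%, and 0.0278% as lower), and 0 of 6 members by either tool, with 0 at an unadjusted p under 0.05. In GABAergic neurons 4 of 14558 genes passed (0.0275%, and 0.00687% as lower), and again 0 of 6 members by either tool, with 0 at an unadjusted p under 0.05. In oligodendrocytes 8 of 11259 genes passed (0.0711%, and 0.0355% as lower), and 0 of 6 members by either tool, with 1 at an unadjusted p under 0.05 beside 211 of all genes. In striatal projection neurons 3 of 8821 genes passed (0.0340%, and 0.0227% as lower), and 0 of the 5 members with UMIs by either tool, with 0 at an unadjusted p under 0.05. With the replicate block 13 genes passed in oligodendrocytes and 6 in striatal projection neurons. The filter on low counts was passed by 5 members in all nuclei outside microglia, by 4 in glutamatergic neurons, by 1 in GABAergic neurons, by 1 in oligodendrocytes and by 0 in striatal projection neurons, and the others were read from the fit without that filter.

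No member passed the test outside microglia, and the signs were counted as a description. The log2 fold change was below 0 for 5 of 6 members in all nuclei outside microglia (49.7% of all genes tested there), 5 of 6 in glutamatergic neurons (49.6%), 6 of 6 in GABAergic neurons (48.7%), 4 of 6 in oligodendrocytes (48.8%) and 1 of 5 in striatal projection neurons (51.0%). The percentages cover genes that passed the filter on low counts, while members below it were read from the fit without it. Some of these signs rest on few UMIs, such as that of *Sp100* in oligodendrocytes on 2 and 0 (standard error 1.47). These sets overlap, since the nuclei outside microglia hold the other 4. Whether the genotype difference of a gene differs between microglia and another class was not tested.

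*Gm4951* had the lowest log2 fold change of the 6 in all nuclei outside microglia. Outside microglia it stood at 0.425, 0.633, 0.340 and 0.260 CPM in Wt F1, F2, M1 and M2 and at 0.252, 0.214, 0.0946 and 0.180 CPM in *Ifnar1*-/-. All 4 knockout mice lay below all Wt mice, the closest pair being Wt M2 and *Ifnar1*-/- F1, but this did not hold without border macrophages. The log2 fold change was -1.18 (standard error 0.40), with 78 and 32 UMIs and an adjusted p of 1.00 by edgeR (0.813 to 1 over 14 alternatives). Of the 78 Wt UMIs 31 came from border macrophages, and without these nuclei, an alternative added after seeing the data, 47 and 22 UMIs remained, at pooled levels of 0.251 and 0.123 CPM. The mice then overlapped, with *Ifnar1*-/- F1 at 0.255 CPM above Wt M1 at 0.220 CPM and Wt M2 at 0.0947 CPM. In glutamatergic neurons *Gm4951* had 27 and 8 UMIs, a ratio of 3.22 (1.42 to 8.19), which became 4.97 (1.73 to 19.6) without *Ifnar1*-/- F1, and the levels of single mice overlapped.

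*Sp100* in glutamatergic neurons showed a small difference that left the groups apart. It stood at 0.564, 0.593, 0.647 and 0.586 CPM in Wt F1, F2, M1 and M2 and at 0.501, 0.319, 0.422 and 0.458 CPM in *Ifnar1*-/-. Every knockout mouse lay below every Wt mouse, but on 66 and 45 UMIs, with a pooled ratio of 1.40 whose interval of 0.943 to 2.09 includes no difference. The log2 fold change was -0.47 (standard error 0.22), with an adjusted p of 1.00 by edgeR (0.845 to 1 over 14 alternatives). In all nuclei outside microglia it was -0.47 (standard error 0.23) on 114 and 78 UMIs, with overlapping mice, and -0.30 without border macrophages.

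*Lgals3bp* outside microglia had 270 UMIs in Wt and 196 in *Ifnar1*-/-. Its levels were 1.52, 1.20, 1.32 and 1.75 CPM in Wt F1, F2, M1 and M2 and 0.908, 1.12, 1.23 and 1.08 CPM in *Ifnar1*-/-. The genotypes overlapped by the narrow margin between Wt F2 and *Ifnar1*-/- M1. The log2 fold change was -0.41 (standard error 0.18), with an adjusted p of 1.00 by edgeR (0.826 to 1 over 15 alternatives) and 3 of 4 knockout mice below all Wt mice. In glutamatergic neurons it was -0.50 (standard error 0.27) on 123 and 84 UMIs, with -0.98 in females and -0.06 in males as log2 ratios of mean CPM.

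*Sp140* pointed the other way in glutamatergic neurons, on 86 and 102 UMIs. Its log2 fold change was 0.43 there (standard error 0.54) and 0.25 in all nuclei outside microglia (standard error 0.46). *Sp110* had 24 and 14 UMIs outside microglia, a log2 fold change of -0.68 without the filter on low counts. Of these Wt UMIs 8 came from border macrophages. Without that class 16 and 12 UMIs remained, at pooled levels of 0.0854 and 0.0673 CPM, with overlapping mice. *Ifi27* in glutamatergic neurons was counted most often of all and did not separate the genotypes, with 786 and 749 UMIs, a log2 fold change of -0.06 (standard error 0.26) and a pooled ratio of 1.00 (0.904 to 1.11). In GABAergic neurons it had 213 and 188 UMIs and a ratio of 0.993 (0.812 to 1.21).

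In oligodendrocytes *Ifi27* was lower in every knockout mouse. It stood at 28.8, 29.5, 36.8 and 44.7 CPM in Wt F1, F2, M1 and M2. In *Ifnar1*-/- it stood at 21.8, 26.4, 25.4 and 15.6 CPM. The groups did not overlap, with the 2 Wt females and *Ifnar1*-/- F2 close to each other and the males furthest apart. The log2 fold change was -0.66 (standard error 0.22) on 306 and 175 UMIs, all 4 knockout mice lying below all 4 Wt mice, but the adjusted p was 1.00 by edgeR (0.871 to 1 over 14 alternatives, with fold changes of -0.78 to -0.49), so the gene did not pass the test. Within sex the log2 ratio of mean CPM was -0.28 in females and -0.99 in males.

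The pooled oligodendrocyte ratio of *Ifi27* was 1.69 (1.40 to 2.04), beside 5.61 (3.90 to 8.30) in microglia, and the difference between the classes was not tested. Divided by its level in glutamatergic neurons of the same mouse, oligodendrocyte *Ifi27* was 4.78, 5.85, 5.12 and 4.08 in Wt F1, F2, M1 and M2. In *Ifnar1*-/- the quotient was 3.64, 4.26, 2.61 and 2.77. Only *Ifnar1*-/- F2 reached the Wt range, just above Wt M2, and the difference in these quotients was not tested. In oligodendrocyte precursors *Ifi27* had 23 UMIs in Wt and 11 in *Ifnar1*-/-, 43.1 and 14.9 CPM pooled, a ratio of 2.90 (1.36 to 6.59), and each knockout mouse, at 18.4 CPM or less, lay below each Wt mouse, at 26.2 CPM or more. These nuclei were too few in 1 library for a fit. Whether free RNA of microglia has a part in the oligodendrocyte difference was not tested.

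**Figure D3:**
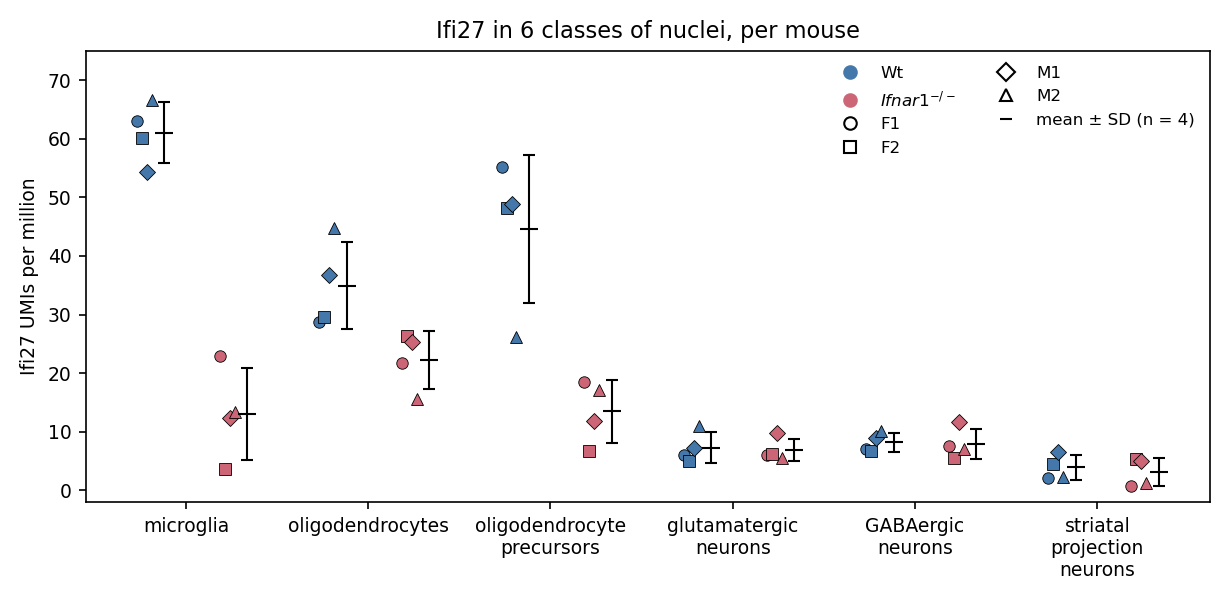
*Ifi27* level in CPM in 6 classes for each mouse (n = 4 per genotype), with the mean and SD beside the points. The genotypes are apart in microglia, oligodendrocytes and oligodendrocyte precursors and overlap in the 3 neuronal classes.

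Border macrophages, which share the myeloid origin of microglia, held few nuclei, 58 in Wt and 116 in *Ifnar1*-/-, with under 20 in 5 libraries, and were not tested. *Gm4951* had 5, 13, 6 and 7 UMIs in Wt F1, F2, M1 and M2 and 0, 4, 2 and 4 in *Ifnar1*-/-. The 63 deep nuclei of *Ifnar1*-/- F1 held none, but their 7 border macrophage markers summed to only 48.1 CPM, so this 0 says little about border macrophages. These nuclei gave 374330 of the 571332 UMIs of the class in *Ifnar1*-/-. Pooled knockout values with this library, of any member, thus rest largely on nuclei with few of the class markers. The levels of the other mice overlapped, with 65.2 CPM in Wt M1 below 84.6 CPM in *Ifnar1*-/- F2. The pooled levels were 174.1 and 17.5 CPM, a ratio of 9.94 (4.75 to 22.7), which became 3.43 (1.64 to 7.84) without *Ifnar1*-/- F1.

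*Sp100* in border macrophages had 2, 4, 4 and 2 UMIs in Wt F1, F2, M1 and M2 and 0 in all 4 *Ifnar1*-/- mice. Against a floor of 3 UMIs over the group it was at least 12.8-fold lower in *Ifnar1*-/-, and at least 4.42-fold lower without *Ifnar1*-/- F1. These bounds take the Wt UMIs as exact and leave out their counting error, unlike the intervals of the other ratios. *Sp110* had 8 and 2 UMIs, a ratio of 12.8 (2.56 to 124), and *Sp140* had 9 and 6, a ratio of 4.81 (1.53 to 16.4). Without *Ifnar1*-/- F1 these ratios were 8.85 (1.19 to 392.6) and 3.32 (0.828 to 19.1). Wt F1, with 7 nuclei, gave 4 of the 8 Wt *Sp110* UMIs, all in 1 nucleus, and 5 of the 9 Wt *Sp140* UMIs. *Lgals3bp* had 4 and 1 UMIs and *Ifi27* 4 and 4. Markers of glutamatergic neurons were present in this class, all 5 of 5, with *Sv2b* the most abundant. Their sum was 833.5 CPM in *Ifnar1*-/- F1, 211.6 to 705.9 CPM in the other knockout libraries and 64.4 to 673.2 CPM in Wt. Striatal projection neuron markers summed to 550.1 to 830.8 CPM in *Ifnar1*-/- and to 0 to 694.9 CPM in Wt. Those of GABAergic neurons summed to 141.6 to 355.1 CPM in *Ifnar1*-/- and to 0 to 320.1 CPM in Wt. The 11 microglia markers summed to 4451 CPM in *Ifnar1*-/- and 7243 CPM in Wt. The part of these markers' cells in the ratios was not tested.

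Other genes of the pathway were examined as lists. Of 70 interferon response genes listed, 68 were in the tables and 32 could be tested in microglia. By edgeR 0 were higher and 1 was lower in *Ifnar1*-/-, but 31 of the 32 had a log2 fold change below 0, with a median of -0.49, where 47.0% of all genes lay below 0 and their median was 0.01, and 12 of the 32 had an unadjusted p under 0.05, as did 152 of all 9526 genes. Without the filter on low counts 66 were fitted, 62 of them below 0 with a median of -0.78, and 2 were called. The 1 gene that passed was *Irf9*, which encodes a DNA-binding factor of the interferon signal. It had 73, 38, 21 and 57 UMIs in Wt F1, F2, M1 and M2 and 3, 14, 12 and 15 in *Ifnar1*-/- microglia. The groups were apart, at 50.3 ± 9.55 CPM (SD, n = 4) and 15.3 ± 2.60 CPM, a log2 fold change of -1.76 (standard error 0.26, edgeR adjusted p = 0.03, lower in 4 of 4 knockout mice). Over 15 alternatives the adjusted p ranged from 0.000821 to 0.163 and the call was kept in 9. It was lost without Wt F1, Wt F2, Wt M2, *Ifnar1*-/- F1, *Ifnar1*-/- M1 or *Ifnar1*-/- M2, with log2 fold changes of -1.67, -1.76, -1.78, -1.79, -1.76 and -1.62.

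The most counted genes of the list were those of antigen presentation. *B2m*, the light chain of MHC class I, had 2371 and 1302 UMIs and a log2 fold change of -0.45, and the heavy chains *H2-K1* and *H2-D1* had -0.86 and -1.14, with overlapping mice and none past the threshold. The list was also below 0 in oligodendrocytes, where 13 of 17 tested genes lay below 0 with a median of -0.34, and 0 passed by edgeR or DESeq2, with 3 at an unadjusted p under 0.05 beside 211 of all 11259 genes. In glutamatergic neurons 20 of 39 lay below 0 and the median was -0.04, while in GABAergic neurons 10 of 24 did and it was 0.09. There 0 passed by either tool, and an unadjusted p under 0.05 was found for 1 gene and for 0, beside 320 of all 17995 genes and 263 of all 14558. Of all genes 48.8% lay below 0 in oligodendrocytes, 49.6% in glutamatergic neurons and 48.7% in GABAergic neurons.

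Of the receptor and its signal, *Ifnar2*, the partner chain, had a log2 fold change of -0.19 in microglia, the kinase genes *Jak1* -0.20 and *Tyk2* -0.40, none of them past the threshold. The called *Irf9* described above belongs to this list as well. Partners of SP100 in PML nuclear bodies did not stand out from all genes. Of 15 such genes 12 were tested in microglia and 7 lay below 0, with a median of -0.02 and 0 passing by edgeR or DESeq2 and 0 at an unadjusted p under 0.05. The chromatin remodeller *Atrx* had 0.03, the kinase *Hipk2* -0.14 and *Morc3* -0.16. Genes related to the family by a SAND or a PHD-bromodomain module gave 6 tested of 10, a median of -0.01, and 0 called by either tool or at an unadjusted p under 0.05. Among them *Gmeb1* had -0.21, *Trim33* -0.14 and *Trim24* -0.15.

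Relatives of the other members were mostly too sparse to test. Of 17 interferon-inducible GTPase genes 4 were tested, 3 of them below 0 with a median of -0.20, and 0 passed by edgeR or DESeq2 with 0 at an unadjusted p under 0.05. *Irgm1* had 71 and 31 UMIs (log2 fold change -0.92), *Irgm2* 323 and 217 (-0.31) and *Gbp7* 108 and 82 (-0.10). Of the galectin genes 2 of 7 were tested, *Lgals9* at -0.12 and *Lgals8* at -0.26, with 0 called by either tool or at an unadjusted p under 0.05, and *Lgals1* had 35 and 41 UMIs. Both *Ifi27* relatives in the tables were below the filter, *Ifi27l2a* at 5 UMIs in Wt against 0 in *Ifnar1*-/-, *Ifi27l2b* at 2 against 0.

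No tested neighbour of the other members passed the test. *Lgals3bp* (ENSMUSG00000033880, chromosome 11, 118392751 to 118402092, minus strand) had 9 neighbours within 250 kb, of which 6 were tested with a median of 0.00. The nearest, *Cant1*, had 132 and 103 UMIs (-0.08), and *C1qtnf1* had 1 and 0. *Ifi27* (ENSMUSG00000064215, chromosome 12, 103434211 to 103440239, plus strand) had 16 neighbours and 3 tested, with a median of -0.04 and *Ddx24* at -0.06 on 529 and 433 UMIs. *Gm4951* (ENSMUSG00000073555, chromosome 18, 60212080 to 60247820, plus strand) had 4 neighbours, of which only *Smim3* was tested, at -0.28. Its 3 other neighbours are GTPase genes of the same kind, and each had UMIs in Wt microglia alone, *Gm4841* with 11, *F830016B08Rik* with 9 and *Iigp1* with 2, against 0 in *Ifnar1*-/-. *Iigp1* and *Smim3* were named after their values were seen.

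Likeness of pattern was measured as the Pearson correlation of log2(CPM + 1) over 16 points, the means of 8 classes in each genotype, which share libraries and depth. For *Sp100* the most alike genes were *Ccl12* (r = 0.903), *Ifih1* (0.890) and *Psmb9* (0.889), whose log2 fold changes in microglia were -0.78, -0.47 and -0.63. For *Lgals3bp* they were *Trim12c* (0.915), *Lcor* (0.902) and *Irf9* (0.897), at -0.60, 0.02 and -1.76. For *Gm4951* they were *Cd74* (0.965), *Trim30c* (0.941) and *Ms4a6c* (0.933), at -0.26, -1.30 and 0.09. For *Ifi27* they were *Tmbim4* (0.878), *Lamp1* (0.875) and *Pot1a* (0.875), at -0.32, -0.11 and -0.17.

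The genes most like *Sp110* were *AW112010* (0.997), *Gbgt1* (0.997) and *Lilra5* (0.993), and those most like *Sp140* were *Lyl1* (0.989), *Cmklr1* (0.976) and *Rab3il1* (0.976), with microglial log2 fold changes between -0.21 and 0.59. Within the family r was 0.934 between *Sp110* and *Sp140*, 0.852 between *Sp100* and *Sp110* and 0.767 between *Sp100* and *Sp140*. The points include the microglia levels on which *Sp100* was chosen, so nothing is read from this order.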

How the data were processed

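UMI counts of 31053 genes were deposited by the authors, made per the labels with Cell Ranger on a GRCm38 (mm10) reference that also counts unspliced transcripts. Nuclei with 200 to 6000 genes, over 1000 UMIs and under 10% mitochondrial UMIs were kept, Scrublet doublets were removed, and nuclei were clustered in scanpy 1.11.5 (40 components of 3000 genes) and named by marker genes. UMIs were summed per mouse and class. Genotypes were compared with edgeR 4.0.16 (R 4.3.3, TMM, filterByExpr, quasi-likelihood test, Benjamini-Hochberg over all genes of a class) in classes with 20 nuclei in every library. Alternatives were DESeq2 1.42.0, no filter, no TMM, sex as covariate, a replicate block, doublets kept, each library left out and thinning to 1000 UMIs. The block treated same-numbered mice as pairs, although the labels do not say that they were processed together. Every pair's correlation of deviations was above 0, the lowest 0.17 in microglia. Only 1 or 2 of the 4 Wt libraries of a class were closest to their own number. Same-numbered mice also share their sex, so these correlations cannot tell a pairing from sex. Ratios carry 95% exact intervals for counting error only.

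The members and lists were chosen with earlier results of these data known. Named genes were the members and, of each list, those called in microglia together with up to 3 of the most counted in Wt microglia. Also named were the called or 2 nearest counted neighbours of each locus, and the 3 most alike genes of each member with at least 50 UMIs in microglia. Microglia with at least 2 marker UMIs were a further alternative. The alternatives for striatal projection neurons, nuclei without border macrophages, and border macrophages without *Ifnar1*-/- F1 were added after seeing the data.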

Additional observations from a re-analysis of the deposited data

Results flagged for a closer look

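In 37 groups of 4 mice with enough UMIs, each group was examined for a mouse far from the other 3, which chance alone gives in about 1 in 20 groups. *Ifi27* in glutamatergic neurons of *Ifnar1*-/- M1 stood at 9.73 CPM, while the other 3 knockout mice lay between 5.62 and 6.19 CPM. The same mouse stood apart for *Ifi27* in all nuclei outside microglia, at 10.2 CPM against 6.28 to 6.67 CPM. The first group of nuclei is part of the second, so these are not 2 separate observations. In glutamatergic neurons Wt M2 was higher still than *Ifnar1*-/- M1. The cause was not tested.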

How the results depend on the processing

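The number of genes called changed with the model. With DESeq2 it was 15 in microglia (9 in edgeR), 39 in all nuclei outside microglia (9), 14 in oligodendrocytes (8), 46 in glutamatergic neurons (10), 5 in striatal projection neurons (3) and 17 in GABAergic neurons (4). With sex as a covariate it was 16, 22, 14, 28, 7 and 11 in that order. Without the filter on low counts it was 21 in microglia and 12 in striatal projection neurons. With the replicate block it was 17 in microglia, 13 in oligodendrocytes and 6 in striatal projection neurons. The causes were not tested.

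With 1 library left out the counts ranged from 3 to 12 in microglia, 4 to 7 in all nuclei outside microglia, 2 to 8 in oligodendrocytes, 4 to 9 in glutamatergic neurons, 0 to 3 in striatal projection neurons and 2 to 4 in GABAergic neurons. In microglia the count was 3 without Wt F1 or *Ifnar1*-/- M1, 4 without *Ifnar1*-/- M2 and 5 without Wt F2, M1 or M2. In glutamatergic neurons it was 4 without Wt F1, Wt M1 or *Ifnar1*-/- M2, 5 without Wt M2 and 6 without Wt F2 or *Ifnar1*-/- F2. In GABAergic neurons it was 2 without Wt M1 or *Ifnar1*-/- F2. In oligodendrocytes it was 4 without Wt M1, 2 without Wt M2 and 3 without *Ifnar1*-/- F2, M1 or M2. In striatal projection neurons it was 0 without Wt M1, Wt M2 or any *Ifnar1*-/- library. In all nuclei outside microglia it was 4 without Wt M1 and 5 without Wt M2 or *Ifnar1*-/- M2.

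In other classes 0 members were called by edgeR or under any of the 14 alternatives. Their log2 fold changes kept their sign in 153 recomputed values and turned in 5. *Ifi27* in glutamatergic neurons turned to 0.18 without Wt M2 and 0.02 without *Ifnar1*-/- M2 (-0.26 without *Ifnar1*-/- M1), and in GABAergic neurons to 0.07 without Wt M2, 0.10 without *Ifnar1*-/- F2 and 0.02 without *Ifnar1*-/- M2 (-0.26 without *Ifnar1*-/- M1). In microglia the log2 fold change ranged from -4.73 to -3.61 for *Sp100*, -2.72 to -2.48 for *Lgals3bp*, -2.58 to -2.10 for *Ifi27* and, over fewer alternatives, -4.17 to -3.24 for *Gm4951*. It ranged from -0.08 to 0.23 for *Sp110* and -0.07 to 0.24 for *Sp140*. Of the 12 shares of microglia with a UMI, 8 moved beyond their counting interval when nuclei were thinned and 4 did not.

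Depth limits what these counts can show. A microglial nucleus held a median of 1431 UMIs (Wt) or 1515 UMIs (*Ifnar1*-/-), and a nucleus without a UMI of a member does not thereby lack its transcript. *Ifnar1*-/- F1, with 156 microglia, gave the least certain level per mouse. Astrocytes, oligodendrocyte precursors and border macrophages held too few nuclei for a test. Classes come from marker genes and not from sorting, and 9423 nuclei had no name. RNA from nuclei does not show protein, and the genotype groups hold 4 mice each.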
